A study of Mus musculus with 4 samples.

Results

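Imprinted genes, which are expressed mainly from the copy inherited from 1 parent, were examined in mouse embryonic stem cells with and without depletion of Usp22, the deubiquitinating enzyme of the SAGA coactivator complex. The members are a list of 41 imprinted genes in 17 domains, chosen by name, with earlier results of these data known. A member was measured where the platform annotation gave its symbol alone to a probe set, which held for 34 genes in 15 domains, out of 19938 genes in all. Snrpn, Ube3a and Gnas were named only on probe sets shared with other genes (3 members), and H19, Slc22a3, Zrsr1 and Nespas on none that could be used (4 members). These 7 genes were not analysed here. Each measured member had 1 probe set.

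RNA of E14 cells, a mouse embryonic stem cell line, was hybridised to 4 one-colour Affymetrix arrays, 2 for cells that carried a lentiviral shRNA against Usp22 and 2 for cells with a lentiviral control shRNA against Luc. Both groups grew without feeders on gelatin in DMEM with 20% FBS, LIF and 2i, a pair of inhibitors made up of CH99021 (3 µM, against GSK3) and PD0325901 (1 µM, against MEK). The labels do not give the number of shRNA sequences or the time after infection, and they do not say that replicates were separate cultures. What the p-values measure is then a spread from sample to sample, pooled over genes, and that spread could be technical.

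Imprinted genes lie in clusters, and each cluster is ruled by an imprinting control region that carries DNA methylation on the maternal or the paternal copy. The methylated and unmethylated copies direct which of the neighbouring genes are silent, often through a long noncoding RNA or a blocked enhancer. Genes of 1 cluster can thus be expressed from opposite parental copies. Naive stem cells hold most of their genome at low DNA methylation, while control regions are shielded by the zinc finger protein Zfp57 and its cofactor Trim28. Arrays sum both copies of a gene, so no value below says which copy was transcribed. In bulk RNA, fewer cells that express a gene and less RNA per cell cannot be told apart.

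The genome around 3 of the domains is shown first, because genes there are the ones the results turn on. Peg3 and Usp29 are transcribed away from each other from start sites that lie 164 bases apart. The 96 bases between their gene models, a part of that stretch, are given, and promoter activity was not measured. The upstream sequences of Mkrn3 and Magel2, neighbours in the Snrpn domain, and of Meg3, the noncoding gene of the Dlk1-Dio3 domain, are given for the 250 bases before the start. All are RefSeq sequences of GRCm38.p6, 5′ to 3′, with capitals at each CG pair, the site of DNA methylation.
Peg3-Usp29 interval, chr7:6730463-6730558, plus strand: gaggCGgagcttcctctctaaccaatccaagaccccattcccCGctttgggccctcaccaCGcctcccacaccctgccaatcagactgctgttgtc
Mkrn3 upstream, chr7:62420154-62420403, minus strand: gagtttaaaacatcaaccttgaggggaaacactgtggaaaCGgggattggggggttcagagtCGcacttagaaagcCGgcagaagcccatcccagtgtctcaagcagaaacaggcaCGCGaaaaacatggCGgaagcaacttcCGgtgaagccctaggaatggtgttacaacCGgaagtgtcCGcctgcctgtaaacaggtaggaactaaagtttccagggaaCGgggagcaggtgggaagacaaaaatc
Magel2 upstream, chr7:62376729-62376978, plus strand: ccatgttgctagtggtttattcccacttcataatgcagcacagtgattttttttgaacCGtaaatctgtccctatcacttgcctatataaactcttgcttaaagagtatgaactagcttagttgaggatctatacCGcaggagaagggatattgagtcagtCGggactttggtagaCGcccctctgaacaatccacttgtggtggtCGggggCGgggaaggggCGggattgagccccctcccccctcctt
Meg3 upstream, chr12:109540746-109540995, plus strand: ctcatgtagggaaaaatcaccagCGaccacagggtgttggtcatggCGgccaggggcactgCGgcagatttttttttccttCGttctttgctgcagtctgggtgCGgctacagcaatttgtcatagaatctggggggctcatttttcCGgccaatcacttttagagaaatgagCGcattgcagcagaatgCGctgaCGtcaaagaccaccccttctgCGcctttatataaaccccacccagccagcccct

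The promoter table held 31 of the 41 members, with a window from 250 bases before to 50 after the start. Over the first window of each gene, members had a median of 17 CG pairs (range 2 to 48), against 7 over 27025 genes. The letters TGCCGC, the core of the sequence that Zfp57 binds when methylated, were searched on both strands. They stood in 8 member windows (25.8%) and in 11.6% of all gene windows. The letters hold a CG pair, and the shares were not matched for the number of CG pairs, which was higher in members. Only these windows at gene starts were searched. Meg3 was among the 8, with the match read as GCGGCA at 190 bases before the start, while the Peg3, Usp29, Mkrn3 and Magel2 windows held none. A match is only a description of these letters and no binding was measured.

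Signals are given as log2 intensities after quantile normalization, and differences as log2 fold changes, depleted minus control, from limma. All genes shared a standard error of 0.27, since the fit took its spread from all genes together. A gene passed where its p, adjusted by Benjamini-Hochberg across the 19938 genes, was under 0.05. Levels near the array floor were read against olfactory and vomeronasal receptor genes, 1196 in number. The 95th percentile of their mean signal, 6.99, is called the receptor background. It was exceeded by 23 of the 34 members and by 48.8% of all genes.

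Usp22 itself, the target of the shRNA, read 9.41 and 9.36 in controls and 8.23 and 8.29 in depleted cells, a 2.17-fold fall without overlap (limma adjusted p = 0.00826). Control replicate 2 stood apart from the other arrays. Across genes it correlated at 0.877 and 0.908 with the depleted arrays, against 0.951 and 0.974 for control replicate 1. The controls correlated at 0.941 with each other, so control replicate 1 was closer to both depleted arrays than to its own group. A member's log2 fold change is also given without control replicate 2 where that moves it by over 1.5 times. The cells carried the stem cell markers, of which 9 of 9 were above the receptor background. Of the markers of other cell types, 4 of 8 for fibroblast, 3 of 8 for primitive endoderm, 2 of 7 for trophoblast and 3 of 7 for neural cells were above it. Of the 9 stem cell markers, 2 were higher and 5 lower without overlap, against 27.4% and 33.3% of all genes, and 0 were called. With limma given a trend of the spread with signal and robust weighting, Sox2 was called higher and Nanog, Klf4 and Tfcp2l1 lower. Those settings called 1.91% of all genes higher and 1.7% lower.

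Among the 34 measured members, Usp29 and Mkrn3 rose and Rtl1 fell (limma adjusted p under 0.05). Over all genes, 2.62% were called higher and 0.105% lower in the same fit. The rising pair lay under the receptor background in both groups, whereas Rtl1 lay above it on every array. Without any overlap between the groups and with a fold of at least 1.5, there were 5 members higher (Usp29, Mkrn3, Ndn, Grb10 and Nnat) and 5 lower (Rtl1, Dlk1, Meg3, Peg10 and Rasgrf1). The background shares for these counts were 12.1% higher and 3.35% lower. The split of 5 to 5 became 8 to 2 where array medians were set equal without quantile normalization and 4 to 7 on the deposited log2 values. At any fold, 11 members were higher and 14 lower without overlap, against 27.4% and 33.3% of all genes, and 9 overlapped. The median of the members was −0.24, beside −0.12 over all genes. Without control replicate 2 it was −0.09, beside −0.05. On the deposited log2 values the members stood at −0.232, beside −0.236 over all genes. With arrays centred on their medians they stood at −0.091, beside −0.095, so the gap depended on the normalization. Without control replicate 2, Usp29 was the one member called (1.04, limma adjusted p = 0.0277), where 0.331% of all genes were called higher and 0.01% lower. Without depleted replicate 1 no member was called and 0 of all genes were, and without depleted replicate 2 no member was called and 1 of all genes was.

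**Figure D1:**
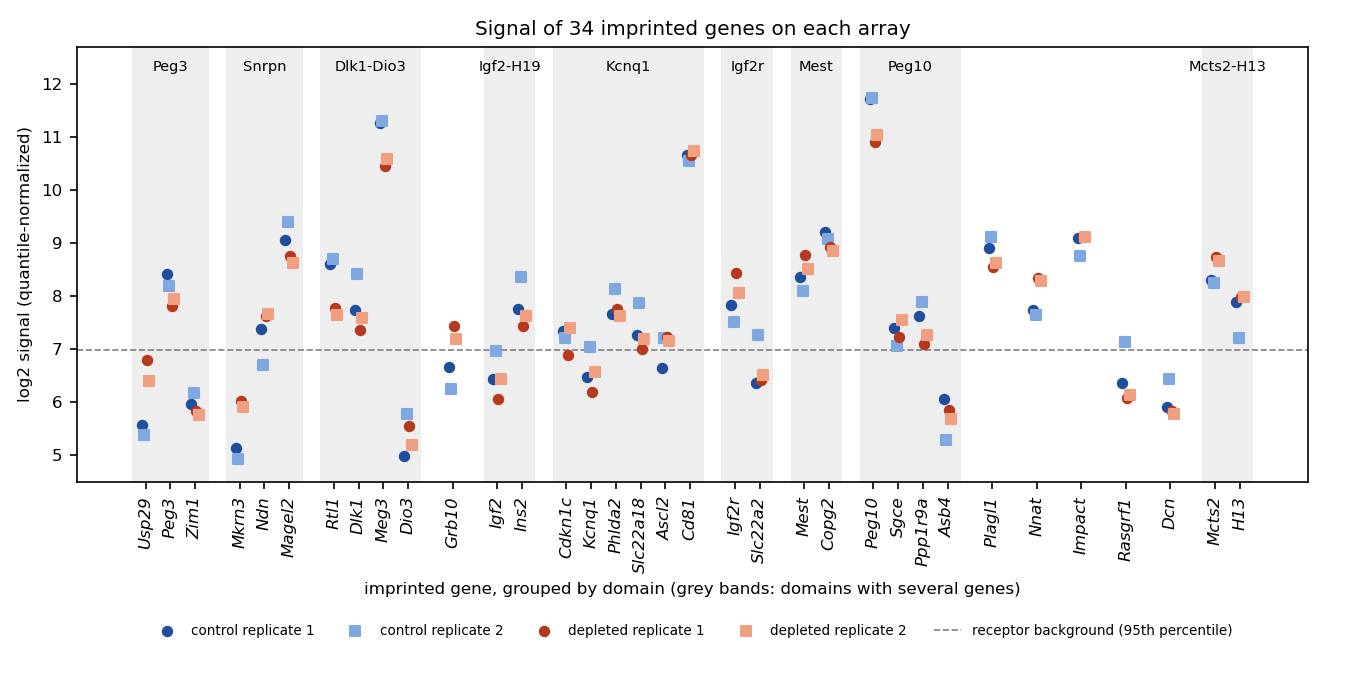
Log2 signal of the 34 measured imprinted genes on each of the 4 arrays, with the receptor background as a dashed line and domains of several genes as grey bands. Rtl1, Meg3 and Peg10 are lower on both depleted arrays than on both control arrays, and Usp29 and Mkrn3 are higher but lie under the dashed line.

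The Dlk1-Dio3 domain held the member that fell, and 3 of its 4 genes were lower without overlap at 1.5-fold. Its paternally expressed genes are Rtl1, a gag-pol-like gene derived from a retrotransposon and needed in the placenta, Dlk1, a transmembrane ligand related to Notch ligands, and Dio3, a deiodinase that inactivates thyroid hormone. Its maternally expressed RNAs form a long noncoding series that starts with Meg3 and goes on through Rian and a large microRNA cluster. Maternal Meg3 expression is a known mark of fully competent mouse stem cell lines.

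Rtl1 read 8.60 and 8.71 in controls and 7.78 and 7.65 in depleted cells. The depleted pair lay below the control pair with a gap wider than the spread inside either group (8.66 ± 0.073 against 7.72 ± 0.092, SD, n = 2 each). Its log2 fold change was −0.94, a 1.92-fold fall (limma adjusted p = 0.0312). Without control replicate 2 the value was −0.89 and missed the threshold (limma adjusted p = 0.0665). The call was also lost with arrays centred on their medians (−0.77, limma adjusted p = 0.0660) and on the deposited log2 values (−0.91, limma adjusted p = 0.0849).

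Meg3 had a signal of 11.26 and 11.30 in controls and 10.45 and 10.59 in depleted cells. Both depleted arrays were thus lower, and the 2 controls differed from each other by far less than they did from either (11.28 ± 0.029 against 10.52 ± 0.100, SD, n = 2 each). The log2 fold change of −0.76 missed the threshold (limma adjusted p = 0.0878), and with arrays centred on their medians it was −0.50 (limma adjusted p = 0.231). When limma was given a trend of the spread with signal and robust weighting, which allowed a smaller standard error for bright genes (0.10 for Meg3), it passed (limma adjusted p = 7.38e-10). That fit called 1.91% of all genes higher and 1.7% lower, and of the members it called Usp29 higher and Rtl1, Meg3 and Peg10 lower. Meg3 was also called lower when only the 9738 genes above the receptor background were fitted (limma adjusted p = 0.0330), as were Rtl1 and Peg10. That fit called 6.41% of those genes higher and 1.24% lower.

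Dlk1 read 7.73 and 8.41 in controls against 7.36 and 7.59 after depletion. Control replicate 1 lay close above the depleted arrays and control replicate 2 well above them, and the log2 fold change moved from −0.60 to −0.26 without that array (limma adjusted p = 0.178 and 0.532). Dio3 read 4.99 and 5.77 against 5.56 and 5.18, overlapping and under the receptor background on all 4 arrays (−0.0084, and 0.38 without control replicate 2). Rian, the maternal noncoding RNA downstream of Meg3, was taken from a list of further imprinted genes. It was lower without overlap, at 8.57 and 8.39 against 8.15 and 8.18 (−0.31, limma adjusted p = 0.422, and −0.12 with each array centred).

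Probe sets for 39 of the 58 microRNA genes between Dlk1 and Dio3 were also on the array. They were looked at after the values of the domain were seen, so they are described with no test. Of the 39, 34 had lower group means after depletion, 25 were lower without overlap and 0 were higher without overlap. Their median log2 fold change was −0.42, beside −0.24 over 220 microRNA genes elsewhere in the genome. Of those 220, 159 had lower group means, and 100 were lower and 24 higher without overlap. Over all 19938 genes, 11440 had lower group means and 33.3% were lower without overlap. Only 11 of the 39 were above the receptor background, and all 11 were lower without overlap, between −0.44 and −0.89. Of all 9738 genes above that background, 3675 were lower and 3586 higher without overlap. Left without control replicate 2, the median of the 39 was −0.49, and that of the microRNA genes elsewhere was −0.20. The summed linear intensity of the 39 was 5899 and 6113 in controls and 4111 and 4190 in depleted cells. A probe set of this kind reads the precursor or its host RNA, and mature microRNA was not measured.

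Mir667 had the lowest log2 fold change of the 39, with signals of 9.15 and 9.52 in controls and 8.29 and 8.60 in depleted cells (−0.89, and −0.70 without control replicate 2). Mir370 read 8.23 and 8.28 against 7.36 and 7.62, and Mir341 read 8.66 and 9.15 against 8.07 and 8.22. In these 3 genes both depleted arrays were below both controls. Mir127, Mir431 and Mir136 lie inside the Rtl1 gene model and are transcribed from the maternal copy antisense to it, so that their products can pair with Rtl1 RNA. Inside that gene model, 8 microRNA genes had a probe set, and pairing with Rtl1 RNA was not examined. Of these 8, 7 were lower without overlap, against 33.3% of all genes and 100 of the 220 microRNA genes elsewhere. The median of the 8 was −0.52. By mean signal, 4 of the 8 were above the receptor background, and Mir431 and Mir136 were not among these. Mir127 read 7.64 and 7.86 against 7.24 and 7.18. Since Rtl1 and these genes overlap, whether each probe set read 1 strand alone was not tested.
The mature forms are shown with the seed, bases 2 to 8, in capitals, from RefSeq (GRCm38.p6), because the seed decides which targets a microRNA pairs with.
mmu-miR-667-3p: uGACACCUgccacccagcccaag
mmu-miR-370-3p: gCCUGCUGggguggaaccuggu
mmu-miR-341-3p: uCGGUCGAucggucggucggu
mmu-miR-127-3p: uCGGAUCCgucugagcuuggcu
mmu-miR-431-5p: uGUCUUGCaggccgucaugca
mmu-miR-136-5p: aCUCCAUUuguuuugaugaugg
No seed is shared among these 6. The 74 mature microRNAs of the 39 genes carried 72 different seeds, with AUGUAAC common to miR-379-3p and miR-411-3p and UGGAUAU common to miR-376c-5p and miR-376b-5p.

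**Figure D2:**
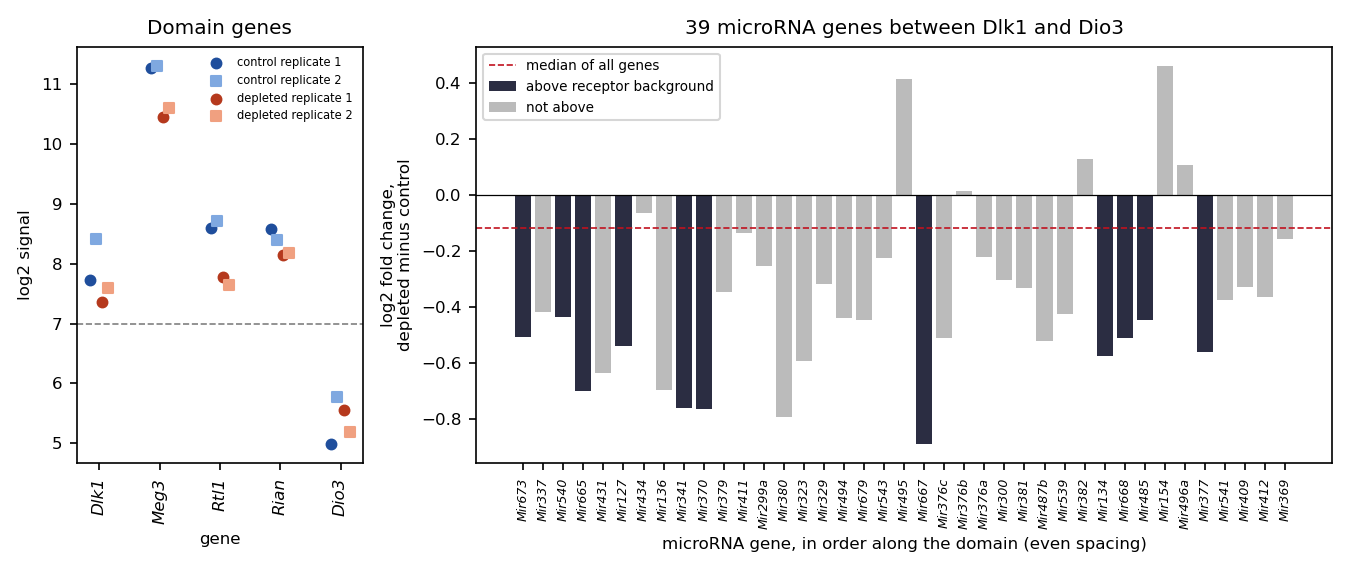
Left, log2 signal of the Dlk1-Dio3 domain genes on each array, with the receptor background dashed; right, log2 fold change (depleted minus control) of 39 microRNA genes in order along the domain, dark where above the receptor background. Meg3, Rtl1, Dlk1 and Rian are lower on both depleted arrays, and all 11 dark bars lie below the median of all genes at −0.12.

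The Peg10 domain held a second bright gene with lower signal. Peg10, another gag-pol-like gene of retrotransposon origin that the placenta needs, read 11.72 and 11.73 in controls and 10.90 and 11.05 in depleted cells. The controls were nearly identical and both depleted arrays lay well below them (11.72 ± 0.011 against 10.98 ± 0.102, SD, n = 2 each). The log2 fold change was −0.75 (limma adjusted p = 0.0929) and −0.51 with arrays centred (limma adjusted p = 0.220), and it too passed under the trend and robust fit (limma adjusted p = 1.94e-12). Sgce, the sarcoglycan gene that shares the Peg10 control region and is also paternally expressed, overlapped between groups, at 7.40 and 7.06 against 7.23 and 7.55 (0.16, and −0.0085 without control replicate 2). Of the maternally expressed genes, Ppp1r9a, which encodes the actin-binding protein neurabin, was lower without overlap at 7.62 and 7.89 against 7.09 and 7.26 (−0.58, limma adjusted p = 0.186). Asb4, an ankyrin repeat gene, overlapped at 6.06 and 5.28 against 5.85 and 5.67. It stood at 0.096, at −0.29 without control replicate 2 and at −0.059 on the deposited log2 values.

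Meg3 and Peg10 were singled out after their values were seen, because few bright genes differed by 1.5-fold. Of the 553 genes with a mean signal of 10 or more, 9 were lower without overlap at 1.5-fold and 0 higher, and the median of the 553 was −0.03. With the trend and robust settings 101 of the 553 were called lower and 18 higher. Meg3 had the lowest log2 fold change of the 553 and Peg10 the next. With arrays centred on their medians, and likewise on the deposited log2 values, Peg10 ranked 1 and Meg3 2 from the lowest. Without control replicate 2 they ranked 3 and 2. Cd81, the third member in this range, stood at 0.095 and ranked 360.

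**Figure D3:**
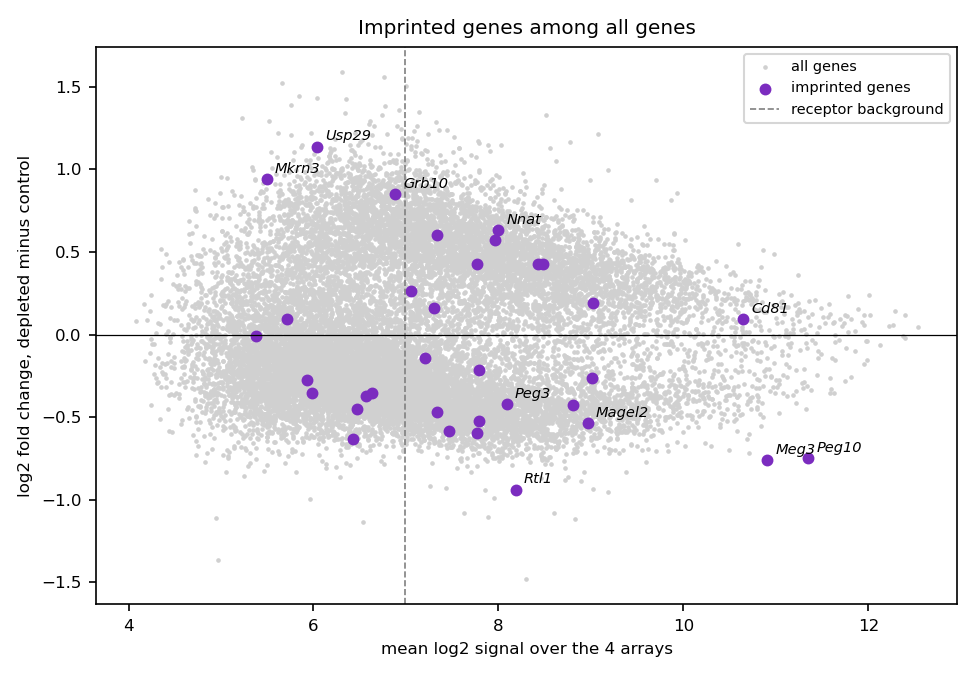
Log2 fold change (depleted minus control) against mean log2 signal over the 4 arrays for 19938 genes in grey and the 34 imprinted genes in purple, with the receptor background dashed. Meg3 and Peg10 lie at the lower edge of the bright genes, and Usp29 and Mkrn3 lie among dim genes where changes scatter widely.

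In the Peg3 domain, the paired genes Usp29 and Peg3 differed in direction. Usp29 encodes a ubiquitin-specific protease of the same enzyme class as Usp22, Peg3 a zinc finger protein that acts in growth and maternal behaviour, and Zim1 a zinc finger protein expressed from the maternal copy. Usp29 read 5.56 and 5.37 in controls and 6.80 and 6.41 after depletion. All 4 values were below the receptor background, with the depleted pair higher throughout. The rise was 2.20-fold (log2 fold change 1.14, limma adjusted p = 0.00739), and on the deposited log2 values it was 0.99 and missed the threshold (limma adjusted p = 0.0550).

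Peg3 read 8.42 and 8.18 in controls and 7.81 and 7.94 in depleted cells, lower without overlap (−0.42, limma adjusted p = 0.303, and −0.26 with arrays centred). Zim1 read 5.97 and 6.17 against 5.83 and 5.75, under the receptor background on all 4 arrays and lower without overlap (−0.28, and −0.18 without control replicate 2). The log2 fold changes of Usp29 and Peg3, with the bases between their gene models printed above, lay 1.56 apart. This difference was not tested, since 2 arrays against 2 allow no exact permutation p below 0.333.

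The Snrpn domain was likewise divided among genes expressed from the paternal copy. Mkrn3 encodes a ring finger protein that restrains the onset of puberty, and Ndn (necdin) and Magel2 encode MAGE family proteins that act in neurons. Mkrn3 read 5.12 and 4.92 in controls and 6.01 and 5.91 in depleted cells, under the receptor background throughout and higher without overlap. It rose 1.92-fold (log2 fold change 0.94, limma adjusted p = 0.0309), and it missed the threshold under the trend and robust fit (limma adjusted p = 0.0768), on the deposited values (0.79, limma adjusted p = 0.127) and without control replicate 2 (0.84, limma adjusted p = 0.0852).

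Ndn read 7.38 and 6.70 against 7.62 and 7.67. It stood at 0.60 and at 0.26 without control replicate 2, where its signal was lowest. Magel2 went the other way, at 9.07 and 9.40 against 8.76 and 8.63 (−0.54, limma adjusted p = 0.218, and −0.31 with arrays centred), with both depleted arrays below both controls. The changes of Mkrn3 and Magel2 lay 1.48 apart, likewise untested.

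Several domains of growth regulators gave no call. Grb10, a signalling adaptor that restrains insulin and growth factor receptors, came nearest, at 6.67 and 6.25 in controls and 7.43 and 7.19 in depleted cells. Only the depleted arrays exceeded the receptor background. Its log2 fold change of 0.85 missed the threshold (limma adjusted p = 0.0517), and it passed with each array centred on its median (0.86, limma adjusted p = 0.0404). Without control replicate 2 it stood at 0.64 (limma adjusted p = 0.191).

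Igf2, the fetal growth factor gene, read 6.43 and 6.96 against 6.05 and 6.44, under the receptor background in all samples and overlapping. Its neighbour Ins2, an insulin gene, was lower without overlap at 7.75 and 8.35 against 7.44 and 7.62. The pair stood at −0.45 and −0.52, and at −0.19 and −0.22 without control replicate 2. Igf2r, the receptor that clears Igf2, was higher without overlap at 7.84 and 7.51 against 8.43 and 8.06 (0.57, limma adjusted p = 0.196). Slc22a2, an organic cation transporter gene in the Igf2r domain, overlapped (−0.35, and 0.10 without control replicate 2).

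All 6 genes of the Kcnq1 domain are listed as expressed from the maternal copy, which was not measured in these cells. Of the 6, 4 overlapped between groups, as did 7843 of all 19938 genes. The cell cycle inhibitor gene Cdkn1c stood at −0.14, Phlda2, which limits placental growth, at −0.21, the potassium channel gene Kcnq1 at −0.38 and Ascl2, a trophoblast transcription factor gene, at 0.27. Phlda2 stood at 0.023, Kcnq1 at −0.095 and Ascl2 at 0.55 when control replicate 2 was left out. The transporter gene Slc22a18 was lower without overlap (−0.47, and −0.17 without control replicate 2). The tetraspanin gene Cd81 was higher without overlap by a small amount, at 10.65 and 10.54 against 10.65 and 10.73. Its value of 0.095 was 0.038 without control replicate 2 and 0.36 with arrays centred.

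In domains of 1 or 2 measured genes, Nnat, a membrane proteolipid gene active in the developing brain, differed most in the higher direction above the receptor background. It read 7.73 and 7.64 in controls and 8.34 and 8.29 in depleted cells, with little spread in either group (0.63, limma adjusted p = 0.158). Leaving out any 1 array kept it between 0.59 and 0.68. Mest, a hydrolase-like gene, stood at 0.43 without overlap, and Copg2, a coat protein gene that meets it tail to tail and is expressed from the other copy, at −0.27 without overlap. With arrays centred they stood at 0.62 and −0.045. Mcts2 is a retrogene that lies within an intron of H13, a gene for a signal peptide peptidase, and both stood at 0.42 to 0.43. H13 moved to 0.09 without control replicate 2, whereas Mcts2 kept 0.39.

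Rasgrf1, a Ras exchange factor gene, read 6.36 and 7.12 against 6.08 and 6.14 (−0.64, and −0.25 without control replicate 2). Dcn, the gene of the matrix proteoglycan decorin, stood at −0.36 and at −0.09 without that array. Both were under the receptor background by their mean signal. The summed linear intensity of 8 fibroblast markers was also highest on control replicate 2, at 1388, against 1106 on control replicate 1 and 1055 to 1115 on the depleted arrays. Single markers differed in this, and Thy1 was lowest there. The sums for stem cell, primitive endoderm, trophoblast and neural markers and for the receptor genes were highest on control replicate 2 as well. None of the 8 fibroblast markers passed the test, and the part of any of these lists in the lower values of Dlk1, Rasgrf1 and Dcn was not tested. Plagl1, a zinc finger transcription factor gene, was lower at 8.91 and 9.12 against 8.56 and 8.62 (−0.43, and −0.20 with arrays centred). Impact, a regulator of the translational stress kinase Gcn2, stood at 0.19, at 0.024 without control replicate 2 and at 0.41 with arrays centred.

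**Figure D4:**
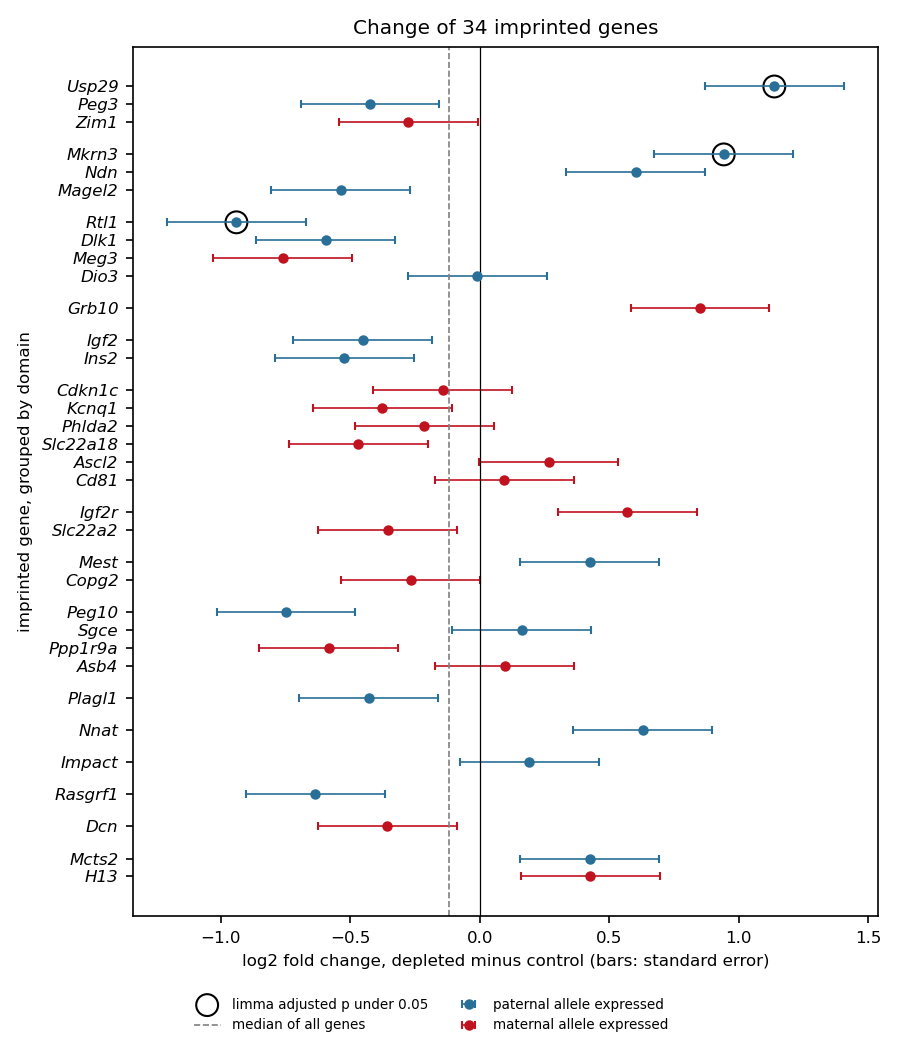
Log2 fold change (depleted minus control) of the 34 measured imprinted genes with the shared standard error as bars, coloured by the parental copy that is listed as expressed. Circles mark Usp29, Mkrn3 and Rtl1, which passed the test, and members of both colours lie on both sides of 0.

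By the parental copy listed as expressed, which was not measured in these cells, 18 measured members were paternal and 16 maternal. The medians were −0.22 and −0.24. All 3 called members were paternally expressed, and of the 10 without overlap at 1.5-fold, 8 were paternal, with Meg3 and Grb10 the maternal ones. The difference in these counts was not tested.

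A second list held 40 further imprinted genes, of which 34 were measured. In it 4 rose and 0 fell, against 2.62% and 0.105% of all genes, with a median of −0.29 beside −0.12. Qpct, a glutaminyl cyclase gene, rose most, from 5.01 ± 0.155 in controls to 6.23 ± 0.329 in depleted cells without overlap (SD, n = 2 each; 1.22, limma adjusted p = 0.00343). The others were the phosphatase gene Inpp5f (1.00), the lipid flippase gene Atp10a (0.93) and the AMP deaminase gene Ampd3 (0.87). Without control replicate 2 the last 3 stood at 0.53, 0.63 and 0.36 and missed the threshold, while Qpct held (1.11, limma adjusted p = 0.0167). By the mean over the arrays, none of the 4 genes was above the receptor background. The trend and robust fit called Qpct and Inpp5f higher, and Klf14 (−0.68) and Gab1 (−0.39) lower. It called 1.91% of all genes higher and 1.7% lower. Klf14 and Gab1 were above the receptor background, and stood at −0.47 and −0.16 with arrays centred.

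Genes that maintain imprints and DNA methylation gave no call, with 0 of 22 measured higher or lower (list of 24). The lowest p-values were those of Hells, a chromatin remodeller of DNA methylation (0.71), Smchd1, a repressor at imprinted clusters and the inactive X (0.70), and the histone demethylase gene Kdm1b (0.69), with limma adjusted p from 0.111 to 0.120. Hells and Smchd1 passed with arrays centred on their medians (0.85 and 0.84, limma adjusted p = 0.0434 and 0.0451). They stood at 0.49 and 0.41 without control replicate 2, and Kdm1b at 0.30. Named after its value was seen, Zfp57 read 11.11 and 11.12 in controls and 10.54 and 10.58 in depleted cells (−0.55, and −0.27 with each array centred). Its cofactor gene Trim28 stood at −0.48, and at −0.21 with arrays centred. Both missed the threshold (limma adjusted p = 0.209 and 0.257) and passed under the trend and robust fit (limma adjusted p = 0.000106 and 0.00144). Dnmt1, the maintenance methyltransferase gene, was lower without overlap at −0.35 (limma adjusted p = 0.372), and stood at −0.13 with arrays centred.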

How the data were processed

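The authors deposited 1 linear intensity per probe set and array for 28856 probe sets. How they were summarised, corrected for background and normalized was not given in the sources used here. Array medians ran from 110 to 128, and 0 pairs of arrays were identical. The log2 of each intensity was taken, and arrays were then quantile-normalized. Probe sets were named through GEO's platform annotation (21789 with 1 symbol, 1621 with several, 5446 unnamed), of which 21698 matched RefSeq (GRCm38.p6) by gene ID. The brightest probe set per gene was kept.

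Groups came from the titles. The test was that of limma 3.58.1 under R 4.3.3 (lmFit, eBayes, two-sided, Benjamini-Hochberg over 19938 genes, 2 residual degrees of freedom), after a test on simulated data. The prior degrees of freedom of the fit were infinite, so each p used the shared standard error and not the gene's own spread. The median of all genes was −0.12, −0.24 on deposited values and −0.09 with arrays centred, and fold changes were not shifted by it. The number of arrays limits the precision.

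The members and lists were chosen with earlier results of these data known. Full values were given for members that passed, members without overlap at 1.5-fold and the domain neighbours of members that passed. In the lists of further imprinted genes and of imprint maintenance, genes that passed or up to 3 with the lowest p were mostly given by fold change. Marker lists were given by counts above the receptor background, and some by summed intensity, without the fold changes of their genes. For stem cell markers, counts without overlap and calls were given too. Promoter and microRNA sequences were matched by symbol. Alternatives covered scaling, probe sets, dim genes, eBayes settings, the replicate number and left-out arrays.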

Additional observations from a re-analysis of the deposited data

How the results depend on the processing

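Each array left out in turn moved the members called from 0 to 8 higher and from 0 to 14 lower, and all genes called from 0 to 4884 higher and from 0 to 4236 lower. It moved the members without overlap at 1.5-fold from 4 to 7 higher and from 3 to 13 lower, and their median from −0.34 to −0.094 (paternally expressed −0.35 to −0.10, maternally expressed −0.29 to −0.094). Without control replicate 1, 8 members were called higher and 14 lower, and without control replicate 2, 1 and 0. On the deposited log2 values 0 members were called higher and 0 lower (75 and 10 of all genes). With arrays centred on their median, 3 and 0 were called (927 and 20), 8 members were higher and 2 lower without overlap, and the median was −0.091 for all and for maternally expressed members. Without the dimmest 0.25 of genes, 1 member was called higher and 1 lower (36 of all genes lower), 3 were higher without overlap, and the paternally expressed median was −0.43. Among genes above the receptor background, 0 members were called higher and 3 lower (121 of all genes lower), 2 were higher without overlap, and the medians were −0.42 (paternally expressed) and −0.18 (maternally expressed); fewer genes and members were tested there. With the intensity trend, 1 member was called higher and 3 lower (326 and 286 of all genes), the same counts for members as with trend and robust settings (339 of all genes lower). Robust settings alone left 295 and 11 of all genes called. With the mean of a gene's probe sets in place of the brightest, 3 members were called higher and 1 lower, Grb10 being the added one.

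The replicate numbers shared by the groups could not be taken as pairs, with 2 numbers and a correlation of 0.105 between the deviations of same-numbered arrays. With the replicate number as a block, 3 members were called higher and 1 lower (856 and 42 of all genes), again with Grb10 added. The sign of Asb4 turned on the deposited values (−0.059). When 1 array was left out, signs turned for Dio3 (−0.40 to 0.38), Cdkn1c (−0.40 to 0.12), Phlda2 (−0.45 to 0.023), Ascl2 (−0.014 to 0.55), Slc22a2 (−0.81 to 0.10), Sgce (−0.0085 to 0.33) and Asb4 (−0.29 to 0.48), none of them called. Beyond these and the values given beside each result, the cause of a moved count was not tested. The 11 members not above the receptor background had mean signals no higher than the 95th percentile of the receptor genes, so their values need caution.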
